A study of Mus musculus with 29 samples.

Results

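Regulatory T cell genes and Cd4 were followed through 29 RNA-seq libraries of peritoneum from a mouse model of gastric cancer peritoneal dissemination. The set held Foxp3, Il2ra, Ikzf2, Tnfrsf18, Tnfrsf4, Ccr8, Il10 and Cd4, that is 8 of the 24421 genes of the count table, found by their symbols. Female C57BL/6J mice of 5 to 6 weeks received YTN16 gastric cancer cells IP, and the stripped peritoneum, with nodules where present, was collected on day 21 (3wk) or day 35 (5wk). At 3wk there were 5 untreated mice, which received PBS, and 5 dual ICI mice, which received anti-PD1 at 10 mg/kg and anti-CTLA4 at 5 mg/kg together. The 5wk mice were 5 untreated, 5 treated with anti-PD1 alone, 4 with anti-CTLA4 alone and 5 with dual ICI at the same doses per injection. By the study's schedule, the 5wk mice received further injections of antibody or PBS after the last one given to the 3wk mice. Of the dual ICI mice at 5wk, numbers 1 and 5 were uncured and numbers 2, 3 and 4 were cured, on the assumption that the numbers of the libraries are the mouse numbers of the study. All mice received the same tumor line, and each library was a different mouse. The 3wk and 5wk libraries carried different number series in the labels, so time, series and number of injections cannot be told apart. The study also reports a cure with anti-PD1 alone but not the number of that mouse, so its library is kept within the anti-PD1 group. Library totals ran from 25989217 to 31219650 counts.

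Regulatory T cells are CD4+ T cells that restrain other immune cells, and the transcription factor Foxp3 defines them. They hold high levels of Il2ra, the alpha chain of the IL-2 receptor (CD25), which signals through JAK kinases and STAT5. Ikzf2 (Helios) is a transcription factor found in many of them, Tnfrsf18 (GITR) and Tnfrsf4 (OX40) are costimulatory receptors, Ccr8 is a chemokine receptor of regulatory T cells in tumors, and Il10 is a suppressive cytokine. Cd4 is the coreceptor of all helper and regulatory T cells. CTLA4 is held at high levels by regulatory T cells and PD1 by activated T cells, so both antibodies can bind cells that these genes mark.

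In GRCm38 with GENCODE M21, Foxp3 lies at X:7573644-7595245 and Il2ra at 2:11642807-11693193, both on the forward strand. Ikzf2 lies at 1:69531214-69687245 and Cd4 at 6:124864692-124888221, both on the reverse strand. Ccr8 lies at 9:120092114-120094906 and Il10 at 1:131019845-131024974, on the forward strand. Tnfrsf4, at 4:156013843-156016612, and Tnfrsf18, at 4:156026164-156028895, are neighbours on the forward strand with 9551 bases between them. Some exons are shared with other genes. Of its 4577 exon bases Foxp3 shares 853 (18.6%) with Flicr, a noncoding RNA gene on the same strand. On the opposite strand it shares 590 with Ccdc22 (12.9%), 373 with Gm36995 (8.15%) and 266 with Ppp1r3f (5.81%), and Tnfrsf18 shares 414 bases (27.2%) with the antisense gene Gm16008. Whether counting used strand was not given in the sources used here, so reads in those stretches cannot be told apart, and those of Foxp3 and Flicr could not be told apart by strand either. The range of Ccdc22 was 13.0 to 21.4 CPM across groups, and its mean in cured mice, where Foxp3 was lowest, was 19.98 ± 1.23 CPM (SD, n = 3).

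The promoters of the lineage factor and of a costimulatory receptor are shown because STAT5, which IL-2 receptor signals activate, binds the sequence TTCNNNGAA, and these windows hold the match to it among the promoters of the set. The windows run from 250 bases before to 50 bases after a RefSeq start (GRCm38.p6, forward strand), and capitals mark the match. Foxp3 has windows at chrX:7579426-7579725 and chrX:7580233-7580532, and Tnfrsf18 at chr4:156026072-156026371.
Foxp3, first window: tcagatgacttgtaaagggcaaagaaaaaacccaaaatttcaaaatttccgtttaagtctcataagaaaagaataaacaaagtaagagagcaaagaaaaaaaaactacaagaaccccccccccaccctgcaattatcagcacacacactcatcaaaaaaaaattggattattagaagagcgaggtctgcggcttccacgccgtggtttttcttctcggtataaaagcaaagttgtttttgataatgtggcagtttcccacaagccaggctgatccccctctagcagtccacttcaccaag
Foxp3, second window: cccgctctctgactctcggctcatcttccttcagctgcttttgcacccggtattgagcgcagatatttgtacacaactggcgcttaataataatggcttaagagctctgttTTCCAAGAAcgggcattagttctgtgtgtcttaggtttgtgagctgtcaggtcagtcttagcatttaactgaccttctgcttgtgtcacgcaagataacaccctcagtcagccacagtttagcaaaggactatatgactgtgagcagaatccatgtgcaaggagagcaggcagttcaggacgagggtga
Tnfrsf18: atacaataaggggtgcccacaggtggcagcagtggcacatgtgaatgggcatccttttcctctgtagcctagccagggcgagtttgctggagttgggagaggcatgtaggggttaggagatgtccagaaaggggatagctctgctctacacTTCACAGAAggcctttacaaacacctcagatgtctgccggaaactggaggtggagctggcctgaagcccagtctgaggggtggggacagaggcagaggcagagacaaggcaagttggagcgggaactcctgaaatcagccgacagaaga
The match starts at base 112 of the second Foxp3 window and at base 152 of the Tnfrsf18 window. Il2ra, Tnfrsf4, Ccr8 and the first Foxp3 window held 0 matches to TTCNNNGAA on either strand, and the table of promoters gave no window for Ikzf2, Il10 and Cd4. The letters TTCNNNGAA occur in 8.30% of the 32851 RefSeq promoters of the same length, so a match is a description and not a site. The forkhead letters GTAAACA (in 3.65% of promoters) and the AP-1 letters TGANTCA (in 7.81%) had 0 matches in all 6 windows of the set, again on both strands. The AP-1 and STAT letters were searched apart and could overlap.

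All 8 genes were transcribed at low levels in this tissue, where skeletal muscle genes took 4.68% to 25.9% of all counts. Levels are given as CPM, the count of a gene scaled to the depth of its library, with library sizes normalized by TMM, and for comparisons between genes also per kilobase of exon. In untreated mice at 5wk the levels per kilobase were 3.88 ± 0.522 for Tnfrsf18 and 3.75 ± 1.65 for Tnfrsf4 (SD, n = 5), above the other genes of the set. Ikzf2 (0.922), Cd4 (0.856), Il10 (0.704), Il2ra (0.616), Foxp3 (0.591) and Ccr8 (0.407) followed on the same scale. Cd3e, a defining marker of T cells, was above 3 counts in every library. It ranged from 9 counts in a cured mouse to 411 counts in a dual ICI mouse at 3wk. Foxp3 ranged from 2 to 192 counts, and its 2 counts in cured mouse 2 were under the 3 counts that a count of 0 allows.

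The 8 genes fell into those that varied widely across the 7 groups and those with a narrow range. The highest group mean was 14.6 times the lowest for Foxp3, 10.6 times for Ccr8, at least 7.10 times for Il10 and 6.08 times for Cd4. The same ratio was 1.72 for Tnfrsf4, 1.65 for Il2ra, 1.53 for Tnfrsf18 and 1.38 for Ikzf2. Cured mice set much of the first 4 spans, which without them were 2.93 for Foxp3, 2.90 for Ccr8, 1.92 for Il10 and 3.30 for Cd4. These are descriptions of group means over 2 to 5 mice.

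Foxp3, the lineage factor, was highest in the uncured mice, at 5.23 and 5.24 CPM, and the anti-CTLA4 group came next with 3.03, 5.01, 4.20 and 2.67 CPM. The untreated mice at 5wk had 2.86, 3.50, 2.697, 2.94 and 1.53 CPM, and the anti-PD1 mice 1.51, 3.33, 3.15, 2.44 and 0.671 CPM. At 3wk the dual ICI mice had 0.946, 1.34, 2.68, 2.38 and 2.74 CPM and the untreated mice 1.65, 1.28, 2.25, 2.02 and 1.74 CPM. The ranges of all neighbouring groups from anti-CTLA4 down to untreated 3wk overlapped, whereas the uncured mice lay above and the cured mice below every mouse of the next group. The cured mice had 0.102, 0.438 and 0.533 CPM, which rested on 2, 9 and 11 counts against 163 and 192 counts in the uncured mice.

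Cd4, the coreceptor, followed another order. It was highest in the uncured mice, at 8.31 and 8.92 CPM, and in the dual ICI mice at 3wk, at 5.14, 5.48, 6.98, 9.20 and 6.62 CPM, and these groups overlapped. No mouse of the other groups exceeded 4.60 CPM. The untreated mice had 3.01, 2.05, 4.58, 3.85 and 3.93 CPM at 3wk and 4.15, 2.89, 4.51, 3.26 and 2.44 CPM at 5wk, and the anti-CTLA4 mice 3.92, 4.60, 4.01 and 3.46 CPM. The anti-PD1 mice ranged lower, at 1.54, 2.72, 4.03, 2.89 and 1.86 CPM, and overlapped with untreated mice. The cured mice, at 1.48, 1.36 and 1.40 CPM, lay below every mouse of the other groups.

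Ccr8, the chemokine receptor, was highest in the dual ICI mice at 3wk, with 0.782, 1.04, 2.08, 1.63 and 1.40 CPM. The uncured mice had 1.19 and 0.900 CPM, within that range. The untreated mice had 0.806, 0.155, 0.655, 0.497 and 0.520 CPM at 3wk and 0.716, 0.203, 0.850, 0.358 and 0.264 CPM at 5wk. These levels stood on 4 to 29 counts a library, so the precision is limited. The anti-PD1 mice had 0.996, 0.489, 0.910, 1.09 and 0.0516 CPM and the anti-CTLA4 mice 0.682, 0.935, 0.726 and 0.365 CPM. The cured mice, with 2, 4 and 2 counts, were at 0.102, 0.195 and 0.0969 CPM, below all mice of the untreated 5wk group.

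Il10, the cytokine, did not share the high level of Foxp3 and Cd4 in the uncured mice. They had 0.642 and 0.491 CPM, inside the range of the untreated mice at 5wk, which had 1.03, 0.529, 1.11, 1.47 and 0.470 CPM. The dual ICI mice at 3wk spread from 0.410 to 2.12 CPM with a median of 0.987 CPM, and the untreated mice at 3wk from 0.408 to 1.23 CPM. In the cured mice Il10 had 1, 2 and 0 counts. That is at or under 3 counts a library, the limit that a count of 0 allows, which was 0.154 CPM in cured mouse 2. Anti-PD1 mouse 5 had 1 count of Il10 and 1 count of Ccr8.

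The remaining receptors and Ikzf2 showed narrow ranges. Il2ra spanned 1.82 to 5.68 CPM across all libraries, with group means from 3.02 ± 0.633 in cured (n = 3) to 4.97 ± 0.0499 in uncured mice (SD, n = 2). Tnfrsf18 had group means from 5.05 ± 1.01 in untreated mice at 3wk to 7.75 ± 0.382 CPM in uncured mice. Tnfrsf4 was most uneven in untreated mice at 5wk, at 4.35, 6.30, 3.90, 8.39 and 2.67 CPM. Ikzf2, with the most counts of the set, had group means from 9.90 ± 1.65 in anti-PD1 to 13.7 ± 1.31 CPM in dual ICI mice at 3wk (SD, n = 5 each). In all 4 genes, groups next to each other in level overlapped.

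At 3wk the question was what dual ICI changed in the peritoneum at the earlier time. Cd4 was higher in each of the 5 dual ICI mice than in every untreated mouse, by 0.95 on the log2 scale (SE 0.24), and Ccr8 by 1.40 (SE 0.39) with some overlap. Foxp3 itself differed by 0.19 (SE 0.31), with 0.055 without dual ICI mouse 5 and 0.36 without dual ICI mouse 1, and Il2ra, Ikzf2, Tnfrsf18 and Tnfrsf4 by 0.28, 0.02, 0.13 and 0.29. Il10 differed by 0.60 (SE 0.46), and by 0.21 without dual ICI mouse 3. By edgeR's quasi-likelihood test with Benjamini-Hochberg adjustment, 0 of the 8 genes passed an adjusted p of 0.05, where 0.574% of the 15503 genes tested did. The adjusted p of Cd4 was 0.125 and that of Ccr8 0.164. At an unadjusted p under 0.05, 2 of 8 were higher (Cd4 and Ccr8), against 6.02% of all genes. DESeq2 called the same 2 of 8, with adjusted p of 0.00735 for Cd4 and 0.0190 for Ccr8, where it called 2.51% of genes. The median difference of the set was 0.28, beside 0.02 for all genes tested.

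Since the difference was larger in Cd4 than in Foxp3, the relation of Foxp3 to other T cell transcripts of the same library was examined. The log2 ratio of Foxp3 to Cd4 was −0.85, −0.66, −1.001, −0.91 and −1.14 in untreated and −2.36, −1.98, −1.36, −1.92 and −1.25 in dual ICI mice at 3wk. Every dual ICI mouse was below every untreated mouse, and the means differed by −0.86. An exact two-sided permutation test gave p = 0.00794, the smallest it can give with 5 against 5 mice, and 0.0714 after Benjamini-Hochberg adjustment over the 27 ratio comparisons. The ratio of Foxp3 to the Cd3 genes (the mean log2 level of Cd3d, Cd3e and Cd3g) was lower by −1.52 and that of Cd8a to Foxp3 higher by 2.19, with the same exact p of 0.00794 and adjusted p of 0.0714 and no overlap in either. The 3 ratios share Foxp3 and are not independent, and none passed after adjustment. The ratio to Cd4 restates the differences of Cd4 and Foxp3 given above, which were seen first, and a rise of Cd8a and Cd3 in these mice was also known beforehand. None of the 3 ratios is therefore separate evidence, and their p describes values already seen.

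**Figure D1:**
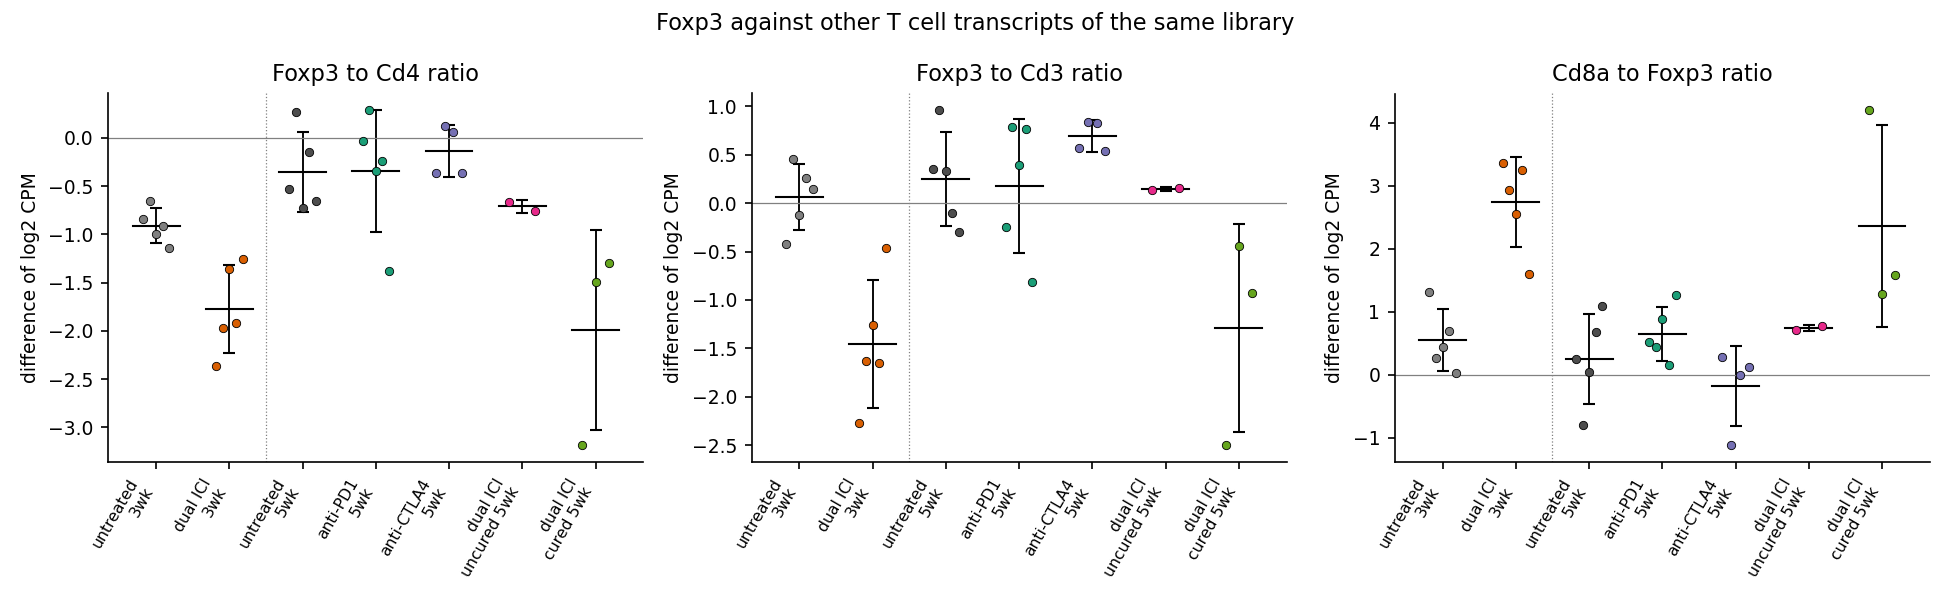
Log2 ratio in each mouse of Foxp3 to Cd4, Foxp3 to the Cd3 genes and Cd8a to Foxp3 (difference of log2 CPM, prior count 2), with bars for the mean and SD of the 7 groups. At 3wk the dual ICI mice lay below all untreated mice in the first and second ratio and above them in the third.

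Other immune genes moved at 3wk in the same libraries. Of the T cell list, 2 of 10 genes passed (both higher, median 1.10), where 0.574% of all genes did, and both Cd8a and Cd8b1 passed. The T cell list summed to 88.2, 86.3, 104, 101 and 80.5 CPM in untreated and 107, 118, 119, 131 and 112 CPM in dual ICI mice, mostly Thy1. Of the macrophage list, 6 of 8 genes were higher at an unadjusted p under 0.05, against 6.02% of all genes, and 0 of 8 passed, and the dendritic cell list had 4 of 7 and 0 of 7. Of the gastric epithelium list, 1 of 16 genes tested passed as lower, where 0.574% of all genes passed. Its differences ran from −2.59 to 0.35, with 8 positive and 8 negative. Its sums were 956 to 2844 CPM in untreated and 1056 to 3142 CPM in dual ICI mice, overlapping. The adipocyte and mesothelium lists lay the other way, while the skeletal muscle list had 20 of 29 positive differences (median 0.16). The adipocyte list had 10 of 10 negative differences (median −0.70), of which 5 had an unadjusted p under 0.05 against 4.67% of all genes, with mean sums of 1287 CPM in untreated and 845 CPM in dual ICI mice. The mesothelium list had 7 of 7 negative differences (median −0.47) and 1 at that p, and 0 genes of either list passed after adjustment by edgeR. The part of these cell types in the Cd4 and Ccr8 differences was not tested. In bulk tissue, fewer cells of a type and less RNA per cell cannot be told apart.

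At 5wk the dual ICI group divided by outcome. In the uncured mice Cd4 was higher than in the untreated mice by 1.31 on the log2 scale (SE 0.28, unadjusted p = 0.0012 by edgeR) and Foxp3 by 0.94 (SE 0.33, unadjusted p = 0.018 by edgeR). Ccr8 differed by 1.09 (SE 0.55), Il2ra by 0.49, Tnfrsf18 by 0.38 and Ikzf2 by 0.12. Tnfrsf4 differed by 0.01 and Il10 by −0.71 (SE 0.53). Some of these values moved over the alternatives other than leaving out a mouse. Tnfrsf4 ran from −4.5e-05 to 0.59, Il2ra from 0.48 to 0.82, Ikzf2 from 0.11 to 0.30 and Il10 from −0.71 to −0.34. The uncured mice lay above every untreated mouse in 5 of 8 genes (Cd4, Foxp3, Ccr8, Il2ra and Tnfrsf18), where 9.22% of all genes did so. With 2 uncured mice, 0 of 8 genes and 0% of the 16156 genes tested passed after adjustment by edgeR, and the adjusted p of Cd4 and Foxp3 was 0.734. At an unadjusted p under 0.05, 2 of 8 genes were higher against 2.74% of all genes. DESeq2 called 1 of 8, Cd4, with an adjusted p of 0.0422, and 0.0852% of all genes. The median of the set was 0.43, beside −0.01 for all genes. Other T cell genes were higher in the same mice: 6 of 10 genes of the T cell list and both Cd8a and Cd8b1 at an unadjusted p under 0.05, with medians of 0.92 and 1.504, and 0 of 10 and 0 of 2 passed after adjustment by edgeR. Between uncured and untreated mice the ratio of Foxp3 to the Cd3 genes differed by −0.10 (exact permutation p = 0.952). The macrophage list had 8 of 8 positive differences (median 0.44) and the dendritic cell list 7 of 7 (median 0.68). Negative differences were found in 27 of 29 skeletal muscle genes (median −1.12), 10 of 10 adipocyte genes (median −1.14) and 6 of 7 mesothelium genes (median −0.67). The part of these T cell genes and other lists in the Cd4 and Foxp3 differences was not tested.

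In the cured mice 3 genes fell against the untreated mice. Foxp3 was lower by −2.87 on the log2 scale (SE 0.50, edgeR adjusted p = 0.0018) and Cd4 by −1.26 (SE 0.28, edgeR adjusted p = 0.0063), each lower in 3 of 3 cured mice than in any untreated mouse. Il10, at or under the limit in all 3 cured mice, was at least 6.01-fold lower (edgeR adjusted p = 0.0027). That made 3 of the 7 genes tested, where 44.7% of 15816 genes passed and 26.7% passed as lower. All 3 were lower, and on so few genes nothing is read from their share. Tnfrsf4 differed by −0.75 (edgeR adjusted p = 0.127; 0.0471 with all 29 libraries in one fit, where 52.1% of all genes passed), Il2ra by −0.20, Tnfrsf18 by −0.13 and Ikzf2 by 0.23, with overlap in each. Without untreated mouse 2, Ikzf2 was 0.43 higher in cured mice and passed (edgeR adjusted p = 0.0489), where 59.5% of all genes did. Without cured mouse 3, 27.9% of all genes passed. Ccr8 had too few counts for edgeR's filter and was not tested there, and its call depended on the setting. DESeq2 gave it −1.84 with an adjusted p of 0.0484, where it called 40.4% of genes, and edgeR with all 29 libraries in one fit gave 0.0344. Without the filter on low counts it was −1.82 and missed the threshold (edgeR adjusted p = 0.0599, where 34.7% of genes passed), and it also missed it without any one cured mouse (edgeR adjusted p = 0.0778 to 0.147). With at least 10 counts required in every library, Foxp3, Il10 and Ccr8 dropped out and 1 of 5 genes passed (Cd4), where 42.7% of all genes did. The uncured and the cured comparison share the same 5 untreated mice.

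Set against each other, the uncured and cured mice differed in 6 of 8 genes, all higher in uncured mice. Over all 15796 genes tested 70.0% passed, 36.9% as higher and 33.1% as lower, so most genes differed between these mice. Foxp3 was higher by 3.81 (SE 0.43, edgeR adjusted p = 6.50e-05), Ccr8 by 2.91 (SE 0.50, adjusted p = 0.00085) and Cd4 by 2.57 (SE 0.21, adjusted p = 9.45e-06). Il10 was at least 3.69-fold higher (edgeR adjusted p = 0.0037). Tnfrsf4 (0.76, SE 0.25, edgeR adjusted p = 0.022) and Il2ra (0.69, SE 0.24, edgeR adjusted p = 0.032) were closer to the threshold. Tnfrsf4 missed it without cured mouse 3 or 4 or uncured mouse 5, and Il2ra without cured mouse 2 or 3 or either uncured mouse. Without an uncured mouse that arm is a single library, assumed to vary like the cured mice. Both genes also missed the threshold with all 29 libraries in one fit (edgeR adjusted p = 0.0822 for Tnfrsf4 and 0.0579 for Il2ra), where 57.3% of all genes passed. Tnfrsf18 differed by 0.52 (edgeR adjusted p = 0.071) and passed without cured mouse 3, with upper-quartile normalization (edgeR adjusted p = 0.0476, 70.5% of all genes) and with at least 10 counts required in every library (edgeR adjusted p = 0.0386, 71.1% of all genes). Ikzf2 differed by −0.11 (edgeR adjusted p = 0.61). The uncured mice were above every cured mouse in 7 of 8 genes, all but Ikzf2, where 43.7% of all genes were. The difference between uncured and cured mice in Foxp3 was larger in size than that in Il2ra and Ikzf2, but the genes were not tested against each other.

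**Figure D2:**
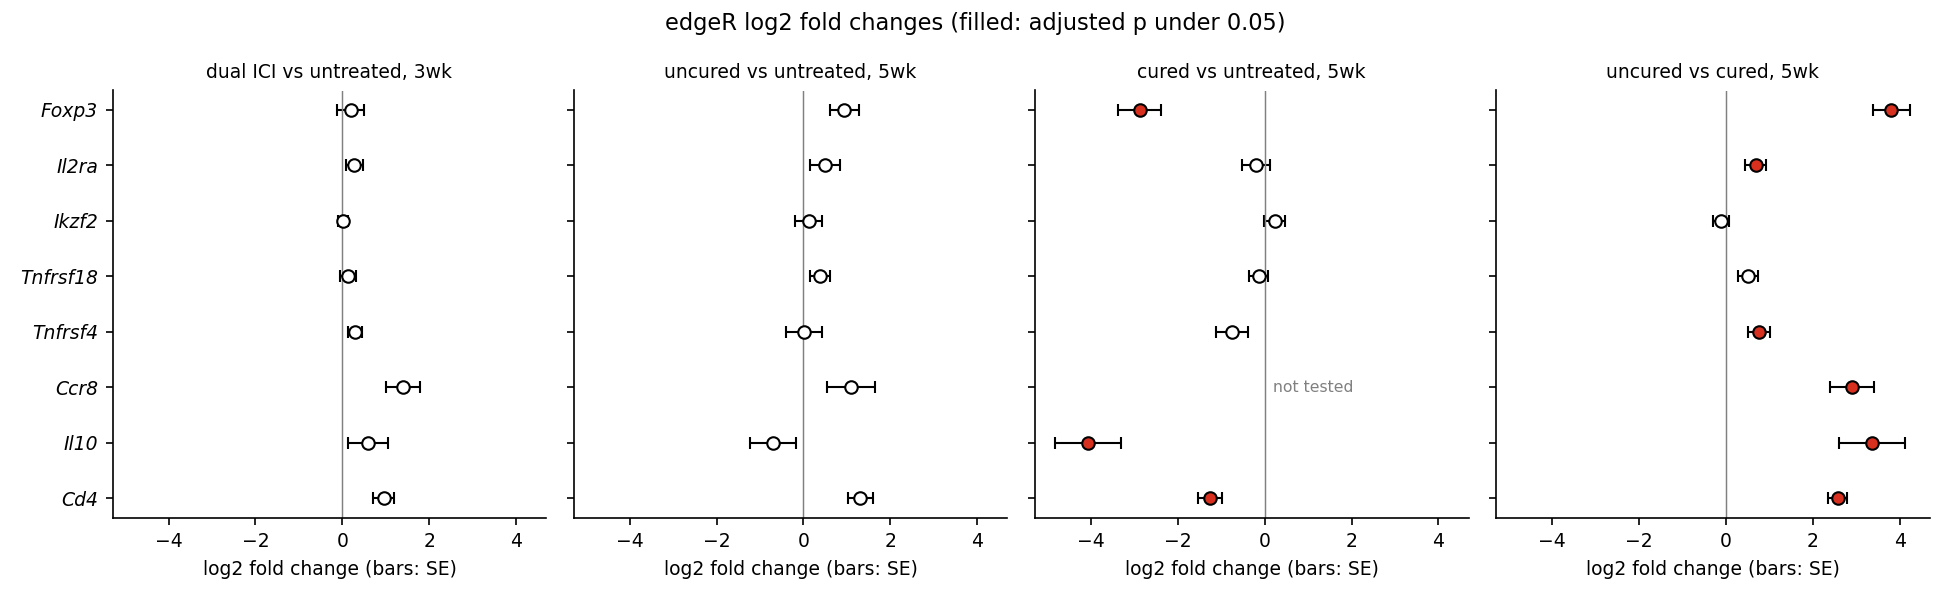
Log2 fold changes by edgeR of the 8 genes in 4 comparisons, with bars for the SE and filled points for an adjusted p under 0.05. No point is filled at 3wk or for uncured against untreated mice, and the fitted values of Il10 in the 2 comparisons with cured mice depend on the prior count because its counts there were 0 to 2.

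The tissue itself differed between these mice, in a comparison where 26.7% of all genes passed as lower and 18.0% as higher. Of the gastric epithelium list, 17 of 17 genes tested were lower in cured than in untreated mice (median −6.56), and its summed level was 119, 50.7 and 25.0 CPM in cured mice. It was 3982 and 4888 CPM in uncured mice, and the untreated mice ranged from 1316 to 4381 CPM. Krt8 was its most abundant gene, and 5 to 11 of its 20 genes were at or under 3 counts in cured mice. The skeletal muscle list, led by Myh4, had 12 of 29 genes higher and took 24.2% to 25.9% of counts in cured mice, 6.20% and 8.69% in uncured mice and 6.83% to 23.1% in untreated mice. The neutrophil list fell in 5 of 5 genes tested (led by Csf3r, with sums of 5.48, 4.43 and 7.75 CPM in cured mice against 27.1 to 88.2 CPM in untreated mice), and the mesothelium list in 5 of 7. The T cell list had 6 of 10 genes lower and 1 higher. It summed to 80.9, 62.6 and 72.1 CPM in cured, 144 and 136 CPM in uncured and 68.6 to 128 CPM in untreated mice. These sums overlapped between cured and untreated mice, whereas Cd3e did not (0.461 to 1.65 against 1.99 to 2.32 CPM). The ratio of Foxp3 to the Cd3 genes differed by −1.54 between cured and untreated mice (exact permutation p = 0.0357, adjusted p = 0.0964). Leaving out a mouse gave −1.96 to −0.93. The B cell list had 1 of 5 lower, the natural killer cell list 2 of 3 lower, and the macrophage list 0 of 8 in either direction. The part of these changes in the levels of Foxp3, Il10 and Cd4 was not tested.

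**Figure D3:**
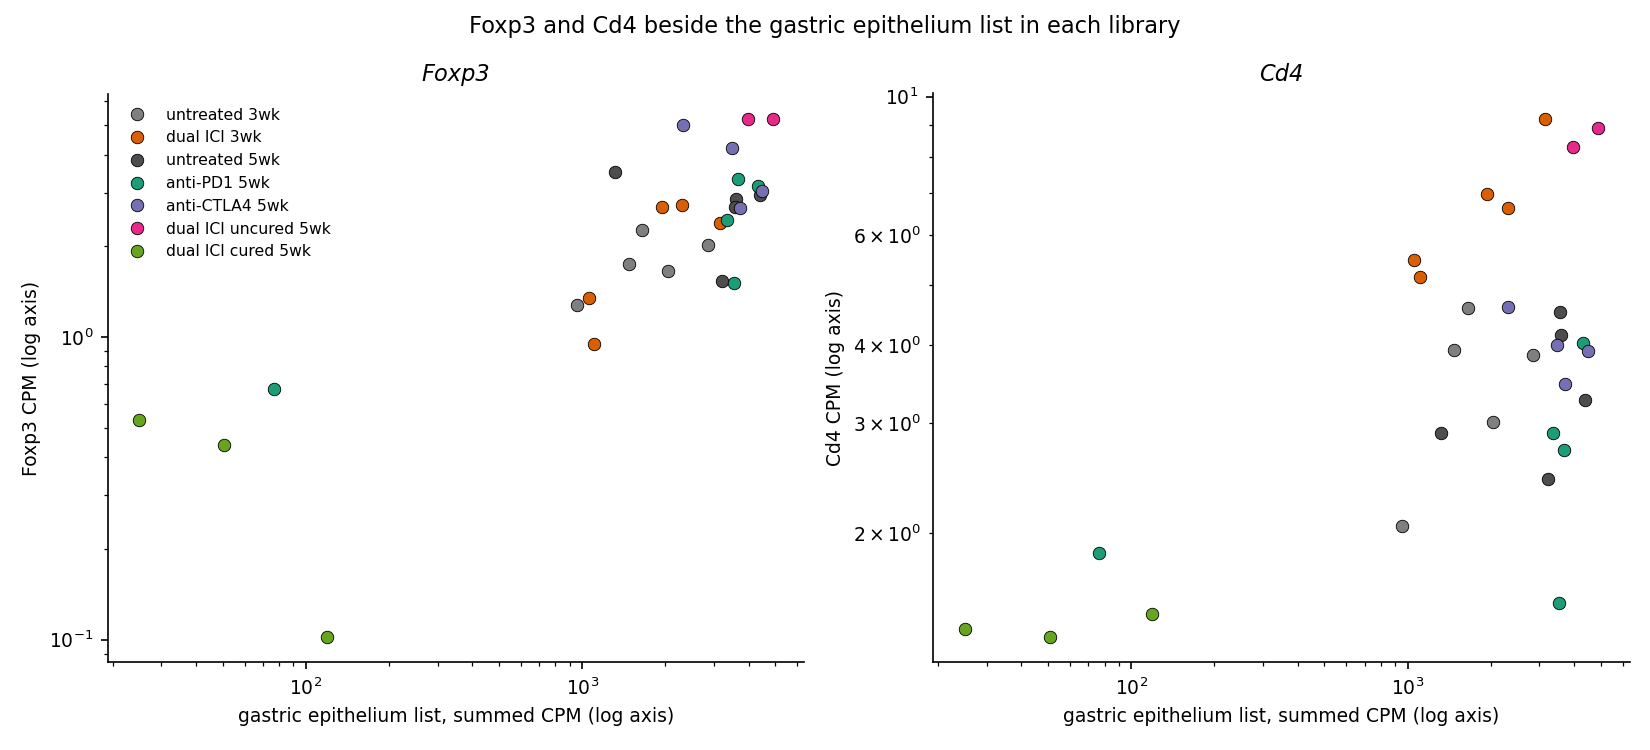
Foxp3 (left) and Cd4 (right) against the summed level of the gastric epithelium list in each of the 29 libraries (CPM, log axes), colored by group. The cured mice and anti-PD1 mouse 5 lay at 25.0 to 119 CPM of epithelial genes, apart from all other mice, which started at 956 CPM.

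The fifth anti-PD1 mouse stood apart from its group. Its gastric epithelium list summed to 76.5 CPM, where the other 4 mice had 3351 to 4315 CPM, and the skeletal muscle list took 24.0% of its counts. It was the lowest of the group in Foxp3 (0.671 CPM, 13 counts), Ccr8 (0.0516), Il10 (0.0516), Tnfrsf4 (2.58) and Tnfrsf18 (4.49), and the highest in Ikzf2 (12.6 CPM) and Il2ra (3.92 CPM). The outcome of each anti-PD1 mouse was not given in the sources used here, so whether this is the cured mouse of that group was not determined. The differences of Foxp3, Cd4 and Ccr8 and the 3 ratios of the anti-PD1 group are given with and without it.

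Single antibodies at 5wk were compared with untreated mice and with each other. In anti-PD1 mice Foxp3 differed by −0.28 (SE 0.40), Cd4 by −0.40 (SE 0.29) and Ccr8 by 0.57 (SE 0.60). In anti-CTLA4 mice Foxp3 differed by 0.44 (SE 0.29), Cd4 by 0.19 (SE 0.22) and Ccr8 by 0.46 (SE 0.46). The remaining genes differed by −0.44 to 0.21 in either group. By edgeR 0 of 8 genes passed with anti-PD1 (0% of all genes), 0 of 8 with anti-CTLA4 (0%) and 0 of 8 between the antibodies (0%). Without anti-PD1 mouse 5, Foxp3 differed from untreated mice by −0.06 (SE 0.30), Cd4 by −0.31 (SE 0.29) and Ccr8 by 0.83 (SE 0.44). That also left 0 of 8 genes past the threshold in the comparison with untreated mice and in the comparison of the antibodies. At an unadjusted p under 0.05 there were also 0 of 8 in the 3 comparisons, against 1.31%, 0.811% and 0.947% of all genes, and DESeq2 called 0 of 8 in each, with 0%, 0% and 0% of all genes. Between the antibodies, Foxp3 differed by 0.73 (SE 0.42), Cd4 by 0.61 (SE 0.28) and Ccr8 by −0.10 (SE 0.59) in anti-CTLA4 against anti-PD1 mice, with overlap in Foxp3 and Cd4. Without anti-PD1 mouse 5 these values were 0.50 (SE 0.30), 0.50 (SE 0.27) and −0.38 (SE 0.36). The ratio of Foxp3 to Cd4 differed by 0.01 between anti-PD1 and untreated mice (exact permutation p = 0.984), and by 0.27 without anti-PD1 mouse 5 (exact permutation p = 0.302). It was near 0, and leaving out a mouse gave −0.14 to 0.27 and turned its direction in 6 of 10 cases. Between anti-CTLA4 and untreated mice it differed by 0.22 (exact permutation p = 0.381). Between anti-CTLA4 and anti-PD1 mice it differed by 0.21 (exact permutation p = 0.698), and by −0.05 without anti-PD1 mouse 5 (exact permutation p = 0.771). Relative to the Cd3 genes, Foxp3 differed by −0.07 between anti-PD1 and untreated mice (exact permutation p = 0.810) and by 0.52 between anti-CTLA4 and anti-PD1 mice (exact permutation p = 0.206). Without anti-PD1 mouse 5 these values were 0.17 (exact permutation p = 0.635) and 0.27 (exact permutation p = 0.371). With Cd3e alone and all mice they were −0.38 (exact permutation p = 0.421) and 0.56 (exact permutation p = 0.175). Between anti-CTLA4 and untreated mice the ratio of Foxp3 to the Cd3 genes differed by 0.44 (exact permutation p = 0.111), and by 0.17 with Cd3e alone (exact permutation p = 0.667). The ratio of Cd8a to Foxp3 differed by 0.40 between anti-PD1 and untreated mice (exact permutation p = 0.325), and by 0.24 without mouse 5 (exact permutation p = 0.587). It differed by −0.83 in anti-CTLA4 against anti-PD1 mice (exact permutation p = 0.0317, adjusted p = 0.0964), which did not pass after adjustment. It was −0.68 without anti-PD1 mouse 5 (exact permutation p = 0.0571) and −0.52 without anti-CTLA4 mouse 2 (exact permutation p = 0.0714).

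When uncured and cured mice were taken as the label group of 5 dual ICI mice at 5wk, the differences among them were wider than those from untreated mice. Foxp3 differed from untreated mice by −0.23 (SE 0.85), Cd4 by 0.31 (SE 0.59) and Il10 by −1.75 (SE 0.77, unadjusted p = 0.047 by edgeR). By edgeR 0 of the 7 genes tested and 0% of all genes passed, with 1 of 7, Il10, lower at an unadjusted p under 0.05 against 2.46% of genes, and DESeq2 called 0 of 8 against 0.228% of genes. With all 29 libraries in one fit 2 of 8 passed (Foxp3 and Il10), where 16.1% of all genes did. Over the alternatives other than leaving out a mouse, Foxp3 ran from −1.35 to −0.20, Il10 from −2.74 to −1.74 and Cd4 from −0.23 to 0.33. The 5wk mice had also received more injections than the 3wk mice, so an interaction with time includes that difference. The interaction of dual ICI with time, 5wk against 3wk, was −2.33 for Il10 (SE 0.90, unadjusted p = 0.018 by edgeR), −0.64 for Cd4 and −0.42 for Foxp3. In that test 0 of 8 genes and 0% of all genes passed, 1 of 8 (Il10) was lower at an unadjusted p under 0.05 against 4.66%, and DESeq2 called 0 of 8 against 0.0970%. With all 29 libraries in one fit 2 of 8 passed (Il10 and Cd4), where 7.49% of all genes did. The same alternatives gave −3.33 to −2.27 for Il10, −1.18 to −0.61 for Cd4 and −1.53 to −0.37 for Foxp3 in the interaction. The ratio of Foxp3 to Cd4 was lower in the 5 mice by −1.12 (exact permutation p = 0.0159, adjusted p = 0.0857), and by −0.70 without cured mouse 2 (exact permutation p = 0.0317), whose Foxp3 level rested on 2 counts. The ratio of Foxp3 to the Cd3 genes differed by −0.96 (exact permutation p = 0.0952, adjusted p = 0.234), and by −0.52 without that mouse (exact permutation p = 0.190). That of Cd8a to Foxp3 differed by 1.46 (exact permutation p = 0.0317, adjusted p = 0.0964), and by 0.84 without it (exact permutation p = 0.0635). By outcome, the ratio of Foxp3 to Cd4 was −0.66 and −0.76 in uncured mice and −3.18, −1.50 and −1.29 in cured mice, against −0.53, 0.27, −0.73, −0.14 and −0.65 in untreated mice. The cured mice were below every untreated mouse, by −1.64 on average (exact permutation p = 0.0357, the smallest possible with 3 against 5, adjusted p = 0.0964). Without cured mouse 2 the difference was −1.04 (exact permutation p = 0.0952, the smallest possible with 2 against 5). In the uncured mice the difference was −0.35 (exact permutation p = 0.190), and 2 against 5 mice cannot go below 0.0952.

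Time was compared in untreated mice. Foxp3 was 0.60 higher (SE 0.25, unadjusted p = 0.036 and adjusted p = 0.137 by edgeR) and Tnfrsf4 0.69 higher (SE 0.30, unadjusted p = 0.040 and adjusted p = 0.146 by edgeR), both with overlap. Cd4 differed by −0.01, Ikzf2 by −0.34 and Il10 by 0.34. Without untreated mouse 2 of 5wk, Ikzf2 passed at −0.54 (edgeR adjusted p = 0.0145), where 31.2% of all genes did, and that mouse held the highest level of Ikzf2 (15.9 CPM) and the largest share of skeletal muscle counts (23.1%) of its group. With all 10 mice, 0 of 8 genes passed by edgeR where 10.8% of 15604 genes did (4.15% without untreated mouse 5 of 3wk), 2 of 8 were higher at an unadjusted p under 0.05 against 17.1%, and DESeq2 called 0 of 8 against 15.8%. Ppp1r3f, which shares exon bases with Foxp3 on the opposite strand, had means of 4.10 ± 0.866 CPM at 3wk and 6.96 ± 1.10 CPM at 5wk (SD, n = 5 each), and its part in the Foxp3 difference was not tested. The tissue makeup moved with time as well. Of the fibroblast list 6 of 8 genes passed as lower, and its mean sum was 15249 CPM at 3wk and 7843 CPM at 5wk. The gastric epithelium list had 17 of 17 positive differences, of which 1 passed, with mean sums of 1794 and 3212 CPM, and 2 of 4 neutrophil genes passed as higher. Their part in the Foxp3 and Tnfrsf4 differences was not tested. The ratio of Foxp3 to Cd4 differed by 0.55 between 5wk and 3wk (exact permutation p = 0.0159, adjusted p = 0.0857), and that of Foxp3 to the Cd3 genes by 0.19 (exact permutation p = 0.492), or by 0.83 to Cd3e alone (exact permutation p = 0.0317). The ratio of Cd8a to Foxp3 differed by −0.30 (exact permutation p = 0.437).

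Ligands and partner chains of the 8 genes were read next. Il2, the cytokine of the Il2ra receptor, had 0 to 3 counts in every library, so no level could be given. Il2rb and Il2rg, the chains that signal with Il2ra, were higher in dual ICI mice at 3wk by 1.10 and 0.85 (edgeR adjusted p = 0.0973 and 0.0585). In cured mice they fell against untreated mice by 1.52 and 0.58 (edgeR adjusted p = 0.0010 and 0.011). Tnfsf18, the ligand of Tnfrsf18, was at least 18.4-fold lower in cured than in untreated mice (edgeR adjusted p = 0.00018), although Tnfrsf18 itself differed by −0.13. Tnfsf4, the ligand of Tnfrsf4, had 0 counts in all cured mice and at most 10 elsewhere. Ccl8, a chemokine ligand of Ccr8 in mice, fell by 1.99 in cured mice (edgeR adjusted p = 0.00075), and Ccl1, the other ligand, differed by −1.65 (edgeR adjusted p = 0.074) on at most 33 counts. Of the chains of the Il10 receptor, Il10rb fell by 0.88 (edgeR adjusted p = 0.0044) and Il10ra differed by −0.66 (edgeR adjusted p = 0.062). In all, 5 of 7 partners tested passed as lower in cured mice, where 26.7% of all genes did, and 6 of 6 passed as higher in uncured than in cured mice, where 36.9% did, from 1.32 for Il10rb to at least 29.3-fold for Tnfsf18. At 3wk 0 of 6 passed and 4 of 6 were higher at an unadjusted p under 0.05, against 6.02% of all genes, and 0 of 7 passed in uncured against untreated mice. The part of the tissue makeup, which differed in cured mice as described above, in these partner differences was not tested.

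A list of 23 genes that regulatory T cells often share with other activated cells gave the wider context. At 3wk 0 of 22 tested passed by edgeR, 6 were higher at an unadjusted p under 0.05 and 1 lower (Lrrc32, at −0.35), against 6.02% and 4.67% of all genes, with the largest values for Tigit (1.51), Areg (1.37), Icos (0.98) and Ctla4 (0.97), which encode inhibitory and costimulatory receptors and the growth factor amphiregulin. In uncured against untreated mice 0 of 22 passed, with Ccr4 at 1.20, Tigit at 1.05, Itgae at 1.05 and Icos at 1.01. In cured mice 15 of 22 were lower, where 26.7% of all genes passed as lower, and 2 higher (Irf4 and Il1rl1). Areg was at least 28.6-fold lower there, Ccl17 fell by 3.98, Tnfrsf9 by 3.75 and Nt5e by 2.81, and Areg and Ccl17 are also made by epithelial and myeloid cells. In uncured against cured mice 18 of 22 were higher, where 36.9% of all genes passed as higher, and 1 lower (Irf4). The higher genes were led by Areg (at least 55.3-fold), Tnfrsf9 (4.31), Ccl17 (3.42) and Itgae (3.34). The part of the tissue makeup in the differences of this list was not tested. Gpr83 had at most 5 counts and was not tested.

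Transcription factors of other T cells were read from a list that also held Cd40lg, a costimulatory ligand with too few counts to be tested. In cured against untreated mice Tcf7, a factor of naive and memory T cells, fell by 2.55 (edgeR adjusted p = 0.00029), whereas Bcl6 and Satb1 were 1.14 and 1.26 higher (edgeR adjusted p = 0.00052 and 0.035), and Lef1 differed by −0.79. That was 1 lower and 2 higher of 7 genes tested, where 26.7% of all genes passed as lower and 18.0% as higher. In uncured against cured mice 2 of 7 were higher (Tcf7 at 2.75 and Lef1 at 1.90) and 2 lower (Satb1 at −2.20 and Bcl6 at −1.06), against 36.9% and 33.1% of all genes. At 3wk, 0 of 7 passed, with Lef1 at 0.89, Tbx21 at 0.70, Bcl6 at 0.24 and Tcf7 at 0.13. In uncured against untreated mice 0 of 7 passed, and Lef1 differed by 1.11, Satb1 by −0.94, Tbx21 by 0.68 and Gata3 by 0.59. Bcl6 and Satb1 are also transcribed outside T cells. Tcf7 did not follow Cd3e between groups. Its means were 5.75 ± 1.75 CPM in untreated 3wk, 6.20 ± 2.68 in dual ICI 3wk and 9.62 ± 2.90 in untreated 5wk mice. Those of Cd3e were 2.78 ± 0.780, 7.41 ± 2.60 and 2.21 ± 0.125 CPM in the same groups (SD, n = 5 each). Which cells held the Tcf7 transcripts was not tested.

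The genes whose levels were most like each member over the 29 libraries were ranked among 16700 genes by Pearson's r of log2 CPM. The libraries share groups and tissue makeup, so each r over all libraries is followed by r within groups, after group means were subtracted. That does not remove tissue makeup, which also varied within groups. The gastric epithelium list ran from 76.5 to 4315 CPM in anti-PD1 mice, and skeletal muscle took 6.83% to 23.1% of counts in untreated mice at 5wk. The part of tissue makeup in either r was not tested. Cd4 was most like Il2rb (r = 0.957 over all libraries and 0.850 within groups), Lck (0.950 and 0.816), Sh2d2a (0.944 and 0.853), Cd5 (0.933 and 0.762) and H2-Eb2 (0.927 and 0.678). Lck and Cd5 are T cell genes, Il2rb is the receptor chain described above and H2-Eb2 belongs to the MHC class II genes. Foxp3 was most like Sh2d5 (0.903 and 0.724), Il1b (0.902 and 0.737), Clec4n (0.898 and 0.692), S100a8 (0.887 and 0.735) and 2610318N02Rik (0.884 and 0.683), of which Il1b, Clec4n and S100a8 are known from myeloid cells. Ccr8 was most like Tlr1 (0.890 and 0.823), Lrrc55 (0.869 and 0.781) and Id2 (0.866 and 0.787). Il10 was most like Tnfrsf11b (0.894 and 0.786), Sgol1 (0.882 and 0.732) and Cdkn3 (0.881 and 0.755). Ikzf2 was most like Sema6d (0.838 and 0.781), Cd28 (0.828 and 0.757) and Ccdc50 (0.817 and 0.751). Values were lower for Il2ra, with P2ry10 (0.727 and 0.620), Zfp831 (0.694 and 0.563) and Gpr132 (0.676 and 0.543). For Tnfrsf4 they were N4bp3 (0.717 and 0.569), Emc8 (0.705 and 0.646) and Ccl17 (0.691 and 0.621), and for Tnfrsf18 Mvd (0.705 and 0.629), Zfp623 (0.680 and 0.552) and Plk3 (0.676 and 0.523). Between the members themselves, Foxp3 and Cd4 had r = 0.681 (0.592 within groups), and Foxp3 and Ikzf2 −0.171 (0.0643 within groups).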

How the data were processed

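Bulk RNA-seq of peritoneal tissue was analysed in 29 mice. The authors deposited raw counts per gene and library, without normalization, for 24421 gene symbols, of which 20929 had at least 1 count. Aligner and counter were named as STAR 2.7.0f and featureCounts 1.6.4 in the submitters' processing notes, whereas the study's methods name STAR and HTSeq. The strand setting was not given in the sources used here.

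The members and lists were chosen with earlier results of these data known. The text names the 8 members, the partner list, up to 4 genes of largest log2 fold change per comparison from each of the companion and transcription factor lists, the most abundant gene of a cell type list, and the 3 or 5 genes most like each member by Pearson's r. Irf4, Il1rl1 and Lrrc32 were named after their values were seen. A gene of the transcription factor list is not reported here and was left out of its counts. Groups followed the labels, and the outcome of the dual ICI mice at 5wk followed the mouse numbers of the study.

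Each comparison was fitted over the whole table with edgeR 4.0.16 (R 4.3.3; TMM, filterByExpr, quasi-likelihood test, only the groups compared) and adjusted by Benjamini-Hochberg over all genes tested. The threshold was an adjusted p of 0.05, and the procedure was tested on simulated data. DESeq2 1.42.0, other scalings and filters, a replicate block, a fit of all 29 libraries and leaving out each mouse were the alternatives. Ratios were differences of log2 CPM with a prior count of 2, tested by exact two-sided permutation (scipy 1.17.1). A fold against a group at or under 3 counts in each library was computed against that limit and covers counting error only. Positions came from GENCODE M21 and promoter sequences from RefSeq.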

Additional observations from a re-analysis of the deposited data

Results flagged for a closer look

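Foxp3, Ccr8 and Cd4 were flagged because the uncured and the cured mice lay on opposite sides of the untreated mice at 5wk: every uncured mouse was above and every cured mouse below all 5 untreated mice. That was 3 of 8 genes, where 3.93% of the 15796 genes tested lay on opposite sides in this way. For Ccr8 the gaps were narrow. Cured mouse 3 had 4 counts (0.195 CPM) and untreated mouse 2 had 5 counts (0.203 CPM). Uncured mouse 5 had 33 counts (0.900 CPM) and untreated mouse 3 had 29 counts (0.850 CPM). The difference between uncured and cured mice was 3.81 on the log2 scale for Foxp3, 2.91 for Ccr8 and 2.57 for Cd4. These values come from the same spread that singled the genes out and are given as a description. The part of the tissue makeup in these differences was not tested.

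The log2 ratio of Cd8a to Foxp3 was flagged in mouse 2 of the dual ICI group at 5wk, a cured mouse. It was 4.20 there and between 0.70 and 1.59 in the other 4 mice of the group, and its Foxp3 level rested on 2 counts. This was 1 flag among 66 groups of values examined, and chance flags about 1 in 20.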

How the results depend on the processing

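The count of the 8 genes past the threshold was unchanged or within 1.5 times its value in 62 of 69 alternatives other than leaving out a mouse. Most of these 62 were comparisons with a count of 0 that stayed at 0, so the share is no measure of stability. Where the count was not 0, it moved. It ran from 1 to 5 for cured against untreated mice (3 in the main fit) and from 4 to 7 for uncured against cured mice (6 in the main fit). With DESeq2 it was 2 for dual ICI at 3wk (Cd4 and Ccr8) and 1 for uncured against untreated mice (Cd4). With all 29 libraries in one fit it was 2 for the 5 dual ICI mice of 5wk together (Foxp3 and Il10), 5 for cured against untreated mice (Foxp3, Il10, Cd4, Ccr8 and Tnfrsf4) and 2 for the interaction with time (Il10 and Cd4), where 16.1%, 52.1% and 7.49% of all genes passed. With at least 10 counts required in every library it was 1 for cured against untreated mice, of 5 genes tested (42.7% of all genes). With the replicate number as a block it was 1 for dual ICI at 3wk (Cd4, edgeR adjusted p = 0.0445). The numbers mark different mice and did not pair them: deviations of same-numbered mice correlated between −0.902 and 0.697 in 70 pairs, with 27 above 0.1. No block could be fitted for uncured against cured mice, which share no number. Directions turned for Cd4 in the 5 dual ICI mice of 5wk, at −0.21 with the block and −0.23 with all libraries, and for Tnfrsf4 in uncured against untreated mice with DESeq2 (−4.5e-05). Leaving out each mouse gave 0 to 1 genes for untreated 5wk against 3wk, 3 to 4 for cured against untreated and 4 to 5 for uncured against cured mice. It turned the direction of small differences in these ranges: the ratio of Foxp3 to Cd4 for anti-PD1 (−0.14 to 0.27) and anti-CTLA4 against anti-PD1 (−0.053 to 0.36); the ratio of Foxp3 to Cd3 for anti-PD1 (−0.23 to 0.17) and uncured mice (−0.24 to 0.075); Ikzf2 for dual ICI at 3wk (−0.025 to 0.065), uncured against untreated (−0.15 to 0.34) and uncured against cured mice (−0.38 to 0.12). The same held for Tnfrsf4 in uncured against untreated mice (−0.16 to 0.25), Tnfrsf18 in cured mice (−0.33 to 0.0021), Cd4 in untreated 5wk against 3wk (−0.15 to 0.10), and Foxp3 (−0.77 to 0.073) and Cd4 (−0.14 to 0.54) in the 5 dual ICI mice of 5wk. The causes were not tested. All 90 other alternatives of the ratios kept direction and side of the threshold. In the comparisons with uncured mice that side was fixed beforehand and shows no stability. The exact p cannot go below 0.0952 with 2 against 5 mice or 0.2 with 2 against 3. The ratios of dual ICI at 3wk and of cured against untreated mice already had the smallest possible exact permutation p, 0.00794 and 0.0357. Their adjusted p was still 0.0714 and 0.0964, so keeping their side shows no stability there either. Over all genes, dual ICI at 3wk called 89, with 502 by DESeq2, 209 with the block and 6 to 119 without a mouse. Low counts limit the precision of Ccr8 and Il10.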
